A study of Mus musculus with 12 samples.

Results

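The genes described here are 40 genes of ribosome biogenesis and of the nucleolus, chosen by symbol and matched through their Ensembl identifiers. They are 40 of the 47729 genes in the deposited count tables. Their transcripts were measured by sequencing of ribosome-depleted total RNA in 12 libraries from 6 mouse liver cancer cell lines. The primary tumour lines are T1, T2 and T3, and those grown from lymph node metastases are M1, M2 and M3. All 6 lines carry the genotype BRAFV600E; p53 KO, so the control cultures carry both alleles too. The design text names hepatocyte-specific BRAFV600E expression with deletion of Trp53 or Cdkn2a. From every line, 1 library was made after 48 h in DMSO, the solvent, and 1 after 48 h in 2 µM PLX4720, an inhibitor of mutant BRAF. The replicate is therefore the cell line, with 3 lines per site. Whether a line is 1 clone is not stated. The table names of T3, M2 and M3 share a number, and whether these 3 lines are independent is not known.

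Ribosomes are assembled in the nucleolus. RNA polymerase I copies the ribosomal DNA into a long precursor, small nucleolar ribonucleoproteins (snoRNPs) modify and help to fold it, and a relay of helicases, GTPases, nucleases and WD-repeat scaffolds cuts it and builds the small and the large subunit around the pieces. Growth signals through the RAS, RAF and ERK kinases act on this pathway, partly through the transcription factor MYC and partly through the polymerase I initiation factor Rrn3. The ribosomal RNA itself was removed before sequencing, so its synthesis was not measured here.

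Library totals ran from 31992512 to 39288748 counted fragments, and every one of the 40 genes had at least 420 fragments in every library. The treated T3 library had 3.67% mitochondrial fragments, and the other 11 libraries had 0.189% to 0.712%. Trp53 transcripts stood at 2.79 to 8.55 CPM (fragments scaled to library size) in every library, and no library that keeps the gene was analysed here. The labels call all lines hepatocellular carcinoma (HCC), but the summed level of 10 hepatocyte markers under DMSO was 792 to 1472 CPM in primary lines and 0.387 to 4.88 CPM in metastasis lines. Hnf4a, a factor that defines hepatocytes, stood at 141, 151 and 251 CPM in T1, T2 and T3 and at 0 to 0.203 CPM in M1, M2 and M3 under DMSO. The summed level of 8 fibroblast and stellate markers ran the other way, at 1.26 to 15.3 CPM in primary lines and 136 to 1276 CPM in metastasis lines under DMSO. The sum rests on part of the list, since 3 of the 8 reached 1 CPM in any primary line and 4 in any metastasis line under DMSO. Lrat, Reln and Des stayed below 1 CPM in all metastasis lines, with and without PLX4720. Leukocyte markers summed to at most 9.18 CPM in any library. Endothelial markers summed to at most 79.8 CPM, in a primary library under DMSO, and to at most 1.78 CPM in metastasis lines. With PLX4720 the fibroblast and stellate sum was 1.85 to 32.3 CPM in primary and 541 to 2578 CPM in metastasis lines, and 2 of the 4 markers tested rose over all lines. The sum of 6 cholangiocyte and progenitor markers was 2531 to 5257 CPM under DMSO and 2013 to 3126 CPM with PLX4720 in primary lines, and 4562 to 9103 CPM and 1207 to 2531 CPM in metastasis lines, with 2 of the 6 higher and 2 lower over all lines. The part of these markers in the changes of the 40 genes was not tested. The inhibitor was seen at its pathway: 10 of 12 target genes of ERK signalling fell over all 6 lines, against 12.7% of all genes tested. In primary lines 5 of the 12 fell and in metastasis lines 8, against 3.77% and 8.36% of all genes tested. Etv4 went from 99.7, 74.9 and 56.3 CPM to 14.3, 16.1 and 16.3 CPM in T1, T2 and T3. In M1, M2 and M3 it went from 144, 129 and 110.3 CPM to 55.1, 24.9 and 22.2 CPM.

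Most of these genes fell with PLX4720. Over all 6 lines, 28 of the 40 fell and none rose (edgeR quasi-likelihood test, Benjamini-Hochberg adjusted p under 0.05), against 12.7% of the 16555 genes tested that fell and 14.5% that rose. The falls were small. The fitted log2 changes of all 40 genes lay between -0.55 and -0.06 with a median of -0.33, while the median of all genes tested was 0.03. By role, 4 of 5 genes of polymerase I transcription and 5 of 5 of the snoRNP group fell. So did 8 of 13 genes of small subunit assembly, 9 of 12 of large subunit assembly and 2 of 5 multifunctional nucleolar proteins. Of the 28 calls, 19 held in each of 11 other fits that keep the term for the cell line (DESeq2, other scalings, no filter, no mitochondrial genes, each line left out), and 0 of the 40 passed in the fit without that term. Leaving out T1 ended the calls of Pes1, Utp20 and Ddx10, and leaving out T1 or M2 those of Pno1 and Noc2l. Levels are given as CPM, a share of the fragments of a bulk culture, so fewer cells of a kind and less RNA per cell cannot be told apart.

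**Figure D1:**
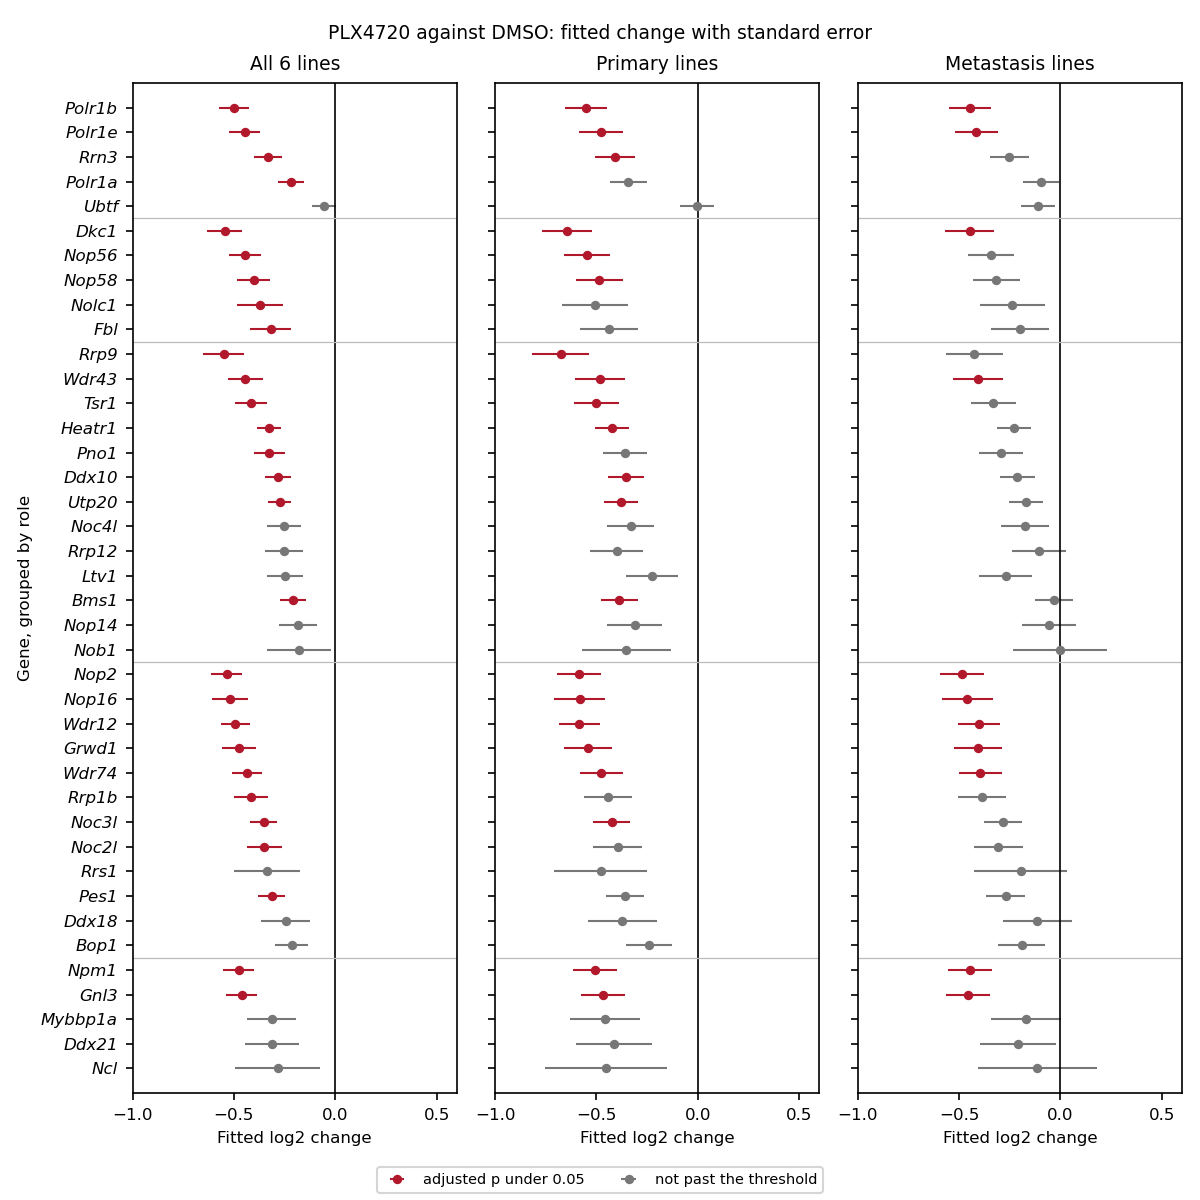
Fitted log2 change of each gene (PLX4720 against DMSO) over all 6 lines, in primary lines and in metastasis lines. Genes are grouped by role from top to bottom as polymerase I, snoRNP group, small subunit, large subunit and multifunctional proteins. Points are edgeR estimates, bars are 1 standard error on either side, and red marks an adjusted p under 0.05 (28, 21 and 11 of 40 genes). All points lie at or left of 0.

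Among the polymerase I genes, Polr1b showed the clearest fall. It encodes the second largest subunit of the enzyme (ENSMUSG00000027395, GRCm38 chromosome 2, 129100995 to 129126594, plus strand). Under DMSO it stood at 108, 141 and 122 CPM in T1, T2 and T3, and with PLX4720 at 62.8, 107 and 86.9 CPM. In the metastasis lines M1, M2 and M3 it went from 88.2, 85.2 and 130.2 CPM to 62.4, 56.2 and 109.9 CPM. Each of the 6 lines was lower with PLX4720, and in primary lines every treated level lay below every control level. The fitted log2 change was -0.50 ± 0.07, a level 1.41-fold lower (± SE; edgeR adjusted p = 0.00204). Polr1e, a peripheral subunit that takes part in initiation, was also lower in 6 of 6 lines, from 32.7, 28.0 and 35.5 CPM to 20.8, 21.9 and 26.5 CPM in primary lines. Its metastasis levels were 29.1, 26.8 and 48.8 CPM under DMSO and 22.3, 17.9 and 40.2 CPM with PLX4720, and its change was -0.45 ± 0.08 (edgeR adjusted p = 0.00395).

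Rrn3 (TIF-IA), the factor that brings polymerase I to its promoter in growing cells, went from 151, 146 and 220.3 CPM to 106, 127 and 154 CPM in T1, T2 and T3. Its levels in M1, M2 and M3 were 197, 213 and 286 CPM and then 164, 162 and 268 CPM. It was lower in 6 of 6 lines with a change of -0.33 ± 0.07 (edgeR adjusted p = 0.00886), least in M3 (-0.09). The largest subunit, Polr1a, fell less (-0.22 ± 0.06, edgeR adjusted p = 0.0343), and its change in M2 was -0.01. Its fall missed the threshold in 5 of the 6 fits that left out 1 line, all but the one without T3. Ubtf, the HMG-box protein that coats active ribosomal DNA, did not pass (-0.06 ± 0.06, edgeR adjusted p = 0.526). Its 12 levels lay between 182 and 241.9 CPM, and treated and control groups overlapped at both sites.

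All 5 genes of the snoRNP group fell. Dkc1, the pseudouridine synthase of the box H/ACA particles (ENSMUSG00000031403, chromosome X, 75095854 to 75109777, plus strand), had the largest change of the 5, -0.55 ± 0.09 or 1.46-fold (SE; edgeR adjusted p = 0.00277). Its levels in T1, T2 and T3 were 192, 175 and 200.6 CPM under DMSO and 106, 118 and 141 CPM with PLX4720. The metastasis lines M1, M2 and M3 held 201.2, 239 and 344 CPM and 138, 149 and 317 CPM. Line M3 held the highest level in both states and changed least (-0.12). Nop56, a scaffold of the box C/D particles, went from 368, 417 and 443 CPM to 214, 320.4 and 318 CPM in primary lines. In metastasis lines it went from 339, 445 and 503 CPM to 267, 301 and 462 CPM, with a change over all lines of -0.44 ± 0.08 (edgeR adjusted p = 0.00479). Every line was again lower. Its partner scaffold Nop58 fell (-0.40 ± 0.08, edgeR adjusted p = 0.00817), with M3 as the line that was not lower, 491 CPM under DMSO and 503 CPM with PLX4720.

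Fbl, the box C/D methyltransferase, and Nolc1, a chaperone of snoRNPs, passed the threshold more narrowly, at -0.32 ± 0.10 (edgeR adjusted p = 0.0451) and -0.37 ± 0.11 (adjusted p = 0.0407). Both were lower in 5 of 6 lines and slightly higher in M1, Fbl from 62.6 to 70.8 CPM and Nolc1 from 163 to 171 CPM. Both calls were lost without T1, T2, M2 or M3.

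In small subunit assembly, Rrp9, a WD-repeat protein of the snoRNP that guides the first cleavages of the precursor, had the largest change, -0.55 ± 0.10 (edgeR adjusted p = 0.00507). It stood at 75.4, 50.8 and 95.1 CPM in T1, T2 and T3 under DMSO and at 41.0, 34.5 and 63.1 CPM with PLX4720. In M1 and M2 it went from 109 and 96.1 CPM to 72.7 and 58.1 CPM, while M3 held 154 and 157 CPM. Thus 5 lines were lower and M3 was level. Wdr43 (UTP5), an early component of the processome, was lower in 6 of 6 lines, with 278, 281 and 287 CPM against 183, 215 and 208 CPM in primary lines. In metastasis lines the levels were 269, 308 and 474 CPM and 196, 187 and 461 CPM, and the change was -0.44 ± 0.09 (edgeR adjusted p = 0.00704). The difference in M3 was -0.04 on the log2 scale, the smallest of the 6 lines.

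Heatr1 (UTP10), a large scaffold needed for both precursor synthesis and early processing, had small differences, from -0.55 in T1 to -0.15 in M3 on the log2 scale. It went from 187, 135 and 206 CPM to 127, 102 and 168 CPM in primary lines and from 171, 212 and 321 CPM to 149, 168 and 289 CPM in metastasis lines. It was lower in 6 of 6 lines with a change of -0.33 ± 0.06 (edgeR adjusted p = 0.00534). Utp20, another long scaffold, stood at 222, 142 and 200.8 CPM in T1, T2 and T3 under DMSO and at 155, 112 and 166 CPM with PLX4720. Its levels in M1, M2 and M3 were 168, 147 and 236 CPM and 160.3, 127 and 202.2 CPM, and its change was -0.27 ± 0.06 (edgeR adjusted p = 0.01). The helicase Ddx10, the late assembly factors Tsr1 and Pno1, and the GTPase Bms1 also fell, with changes of -0.28, -0.42, -0.33 and -0.21. Bms1 was higher in M1, at 129.6 and 142 CPM, and its call (edgeR adjusted p = 0.0436) was lost in each of the 5 fits without T1, T2, T3, M2 or M3. For Tsr1, 32.3% of the exon bases overlap exons of a gene on the other strand, and the counting used no strand option, so its fragments cannot be told apart from those of Srr there.

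The other 5 genes of this role did not pass. Noc4l (-0.25 ± 0.08, edgeR adjusted p = 0.0514), Ltv1 (-0.25 ± 0.09, adjusted p = 0.0745) and the export factor Rrp12 (-0.25 ± 0.09, adjusted p = 0.0753) lay near the threshold. Nop14 (-0.18 ± 0.09, edgeR adjusted p = 0.186) was lower in 3 of 6 lines, the fewest of the 40. Nob1, the endonuclease that makes the final cut of the small subunit RNA, gave 59.0, 52.4 and 40.1 CPM under DMSO and 36.3, 40.1 and 41.0 CPM with PLX4720 in T1, T2 and T3. M1, M2 and M3 gave 12.5, 51.9 and 68.6 CPM and 21.2, 36.1 and 60.6 CPM. M1 held the lowest level of Nob1 in both states and was higher with the inhibitor by 0.71 on the log2 scale, the largest positive difference of any of the 40 genes in any line, while T3 was level at 0.03. Over all lines its change was -0.18 ± 0.16 (edgeR adjusted p = 0.447).

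**Figure D2:**
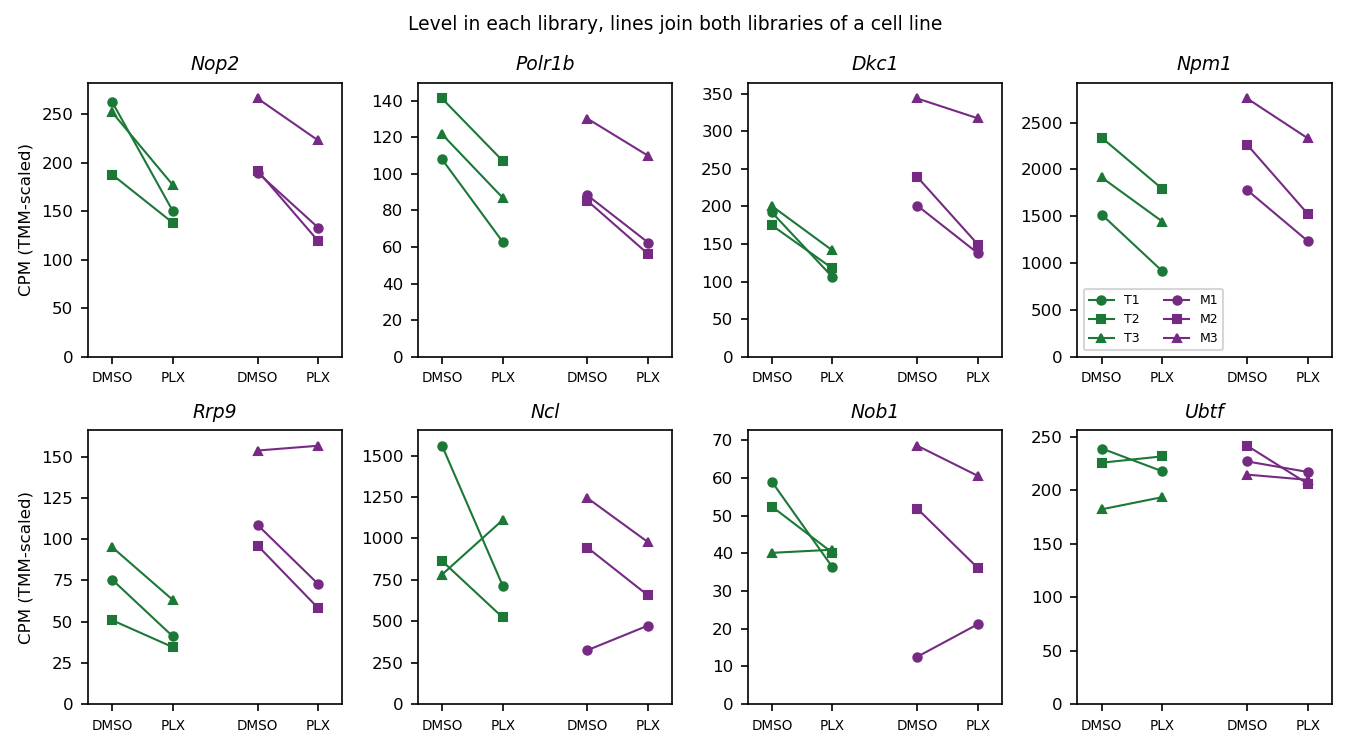
TMM-scaled CPM of 8 genes in each of the 12 libraries (vertical axis from 0), with DMSO and PLX4720 libraries of a line joined, primary lines in green and metastasis lines in purple. Nop2, Polr1b, Dkc1 and Npm1 slope down in all 6 lines, Rrp9 is level in M3 (154 and 157 CPM), Ncl slopes up in T3 and M1, Nob1 slopes up in M1, and Ubtf is near level.

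Large subunit assembly held the gene with the smallest p of the 40. Nop2 (ENSMUSG00000038279, chromosome 6, 125131909 to 125144753, plus strand), a ribosomal RNA cytosine methyltransferase long known as a proliferation antigen, stood at 263, 188 and 252 CPM in T1, T2 and T3 under DMSO and at 150.1, 138 and 177 CPM with PLX4720. In M1, M2 and M3 it went from 189.7, 192 and 266 CPM to 133, 119 and 223 CPM. The 3 primary lines separated fully by treatment, and each metastasis line was lower than its own control. The change was -0.54 ± 0.08, 1.45-fold (SE; edgeR adjusted p = 0.00179). Nop16, a small protein of early large subunit particles, went from 79.2, 53.8 and 71.1 CPM to 43.7, 39.7 and 51.9 CPM in primary lines and from 75.9, 108 and 117 CPM to 52.6, 66.9 and 105 CPM in metastasis lines. Its change was -0.52 ± 0.09 (edgeR adjusted p = 0.00392), and 6 of 6 lines were lower.

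Bop1, Pes1 and Wdr12 form the PeBoW complex, which is needed for processing of the large subunit RNAs. Their fitted changes were of different size. Wdr12 went from 102, 66.1 and 107 CPM to 58.5, 47.9 and 76.6 CPM in T1, T2 and T3 and from 105, 88.9 and 139 CPM to 77.5, 60.3 and 121 CPM in M1, M2 and M3, a change of -0.49 ± 0.07 (edgeR adjusted p = 0.00205). Pes1 fell by less (-0.31 ± 0.07, edgeR adjusted p = 0.0101), from 178, 177 and 179 CPM to 126, 147 and 144 CPM in primary lines and from 179, 174 and 238 CPM to 155, 125 and 219 CPM in metastasis lines. Bop1 did not pass (-0.22 ± 0.08, edgeR adjusted p = 0.0804), being lower in 5 of 6 lines and 0.12 higher on the log2 scale in M3. The difference between the 3 partners was not tested.

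Grwd1, a WD-repeat chaperone of a ribosomal protein, stood at 112, 122 and 118 CPM in T1, T2 and T3 under DMSO and at 69.2, 92.7 and 81.5 CPM with PLX4720. The levels in M1, M2 and M3 were 103, 80.3 and 125 CPM and 75.9, 49.4 and 118 CPM, a change of -0.48 ± 0.08 (edgeR adjusted p = 0.00453). Wdr74, which acts in release of early large subunit factors, went from 79.7, 61.5 and 78.1 CPM to 50.5, 50.1 and 56.4 CPM in primary lines. In metastasis lines it went from 85.9, 61.9 and 102 CPM to 62.4, 41.8 and 90.9 CPM, with a change of -0.43 ± 0.08 (edgeR adjusted p = 0.00416). Both genes were lower in all 6 lines. Noc3l was too, from 66.4, 71.8 and 72.7 CPM to 46.7, 58.3 and 52.6 CPM in T1, T2 and T3 and from 74.5, 58.4 and 97.1 CPM to 60.3, 42.9 and 90.8 CPM in M1, M2 and M3 (-0.35 ± 0.07, edgeR adjusted p = 0.0057). Rrp1b (-0.42) and Noc2l (-0.35) also fell, though 20.9% of the exon bases of Noc2l overlap a gene on the other strand. Rrs1 (-0.34 ± 0.16, edgeR adjusted p = 0.156), which helps to place the smallest ribosomal RNA in the particle, and the helicase Ddx18 (-0.24 ± 0.12, adjusted p = 0.169) did not pass. Each was lower in 5 lines and higher in M1, Rrs1 by 0.54 and Ddx18 by 0.40 on the log2 scale, and Rrs1 had its lowest value in M2 (-0.89).

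The multifunctional proteins fell into both kinds. Npm1 (nucleophosmin, ENSMUSG00000057113, chromosome 11, 33152287 to 33163206, minus strand) is the histone chaperone that forms the outer layer of the nucleolus. By mean CPM under DMSO it was the most abundant of the 40 at both sites, though Ncl stood above it in T1. It went from 1518, 2339 and 1914 CPM to 913, 1792 and 1444 CPM in T1, T2 and T3. In M1, M2 and M3 it went from 1779.8, 2265 and 2758 CPM to 1235, 1526 and 2333 CPM. Each line was lower, and the change was -0.48 ± 0.08, 1.39-fold (SE; edgeR adjusted p = 0.00317). Npm1 has processed copies in the genome, and how the deposited counts split fragments shared with them is not known. Gnl3 (nucleostemin), a nucleolar GTPase of stem and cancer cells, stood at 277, 147 and 118 CPM in T1, T2 and T3 under DMSO and at 174, 114 and 91.5 CPM with PLX4720. In metastasis lines it went from 98.4, 189.6 and 251 CPM to 71.7, 117 and 216 CPM, and its change was -0.46 ± 0.08 (edgeR adjusted p = 0.00357).

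Ncl (nucleolin), an abundant RNA-binding protein of the nucleolus, behaved otherwise. In T1 and T2 it went from 1561 and 864 CPM to 716 and 523 CPM, but in T3 from 782 to 1111 CPM. In M1 it went from 325 to 474 CPM, and in M2 and M3 from 944 and 1244 CPM to 656 and 977 CPM. So Ncl was lower in 4 lines, with the lowest value of any gene in any line in T1 (-1.12 on the log2 scale), and higher in T3 (0.51) and M1 (0.54). Its change over all lines was -0.28 ± 0.21 and did not pass (edgeR adjusted p = 0.356), with the widest SE of the 40. Mybbp1a (-0.31 ± 0.12, edgeR adjusted p = 0.0904) and the helicase Ddx21 (-0.31 ± 0.13, adjusted p = 0.115) did not pass either. Both were higher in M1, by 0.27 each, and near level in T3.

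The library pairs of the lines differed in how far the genes went down. Each line gave 1 library per state, so a difference between lines cannot be told apart from one between single libraries. In T1 all 40 genes were lower with PLX4720, with a median log2 difference of -0.64, and in M2 all 40 were lower with a median of -0.54. T2 had 39 lower (median -0.38), T3 had 35 (median -0.29), M3 had 33 (median -0.16) and M1 had 28 (median -0.21). The median of all genes tested was 0.00 to 0.03 in each of the 6 lines. Of the 40 genes, 22 were lower in 6 of 6 lines, against 12.8% of all genes tested, 12 in 5 lines, 5 in 4 lines and 1 in 3 lines, and none was higher in all 6, against 12.7%.

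**Figure D3:**
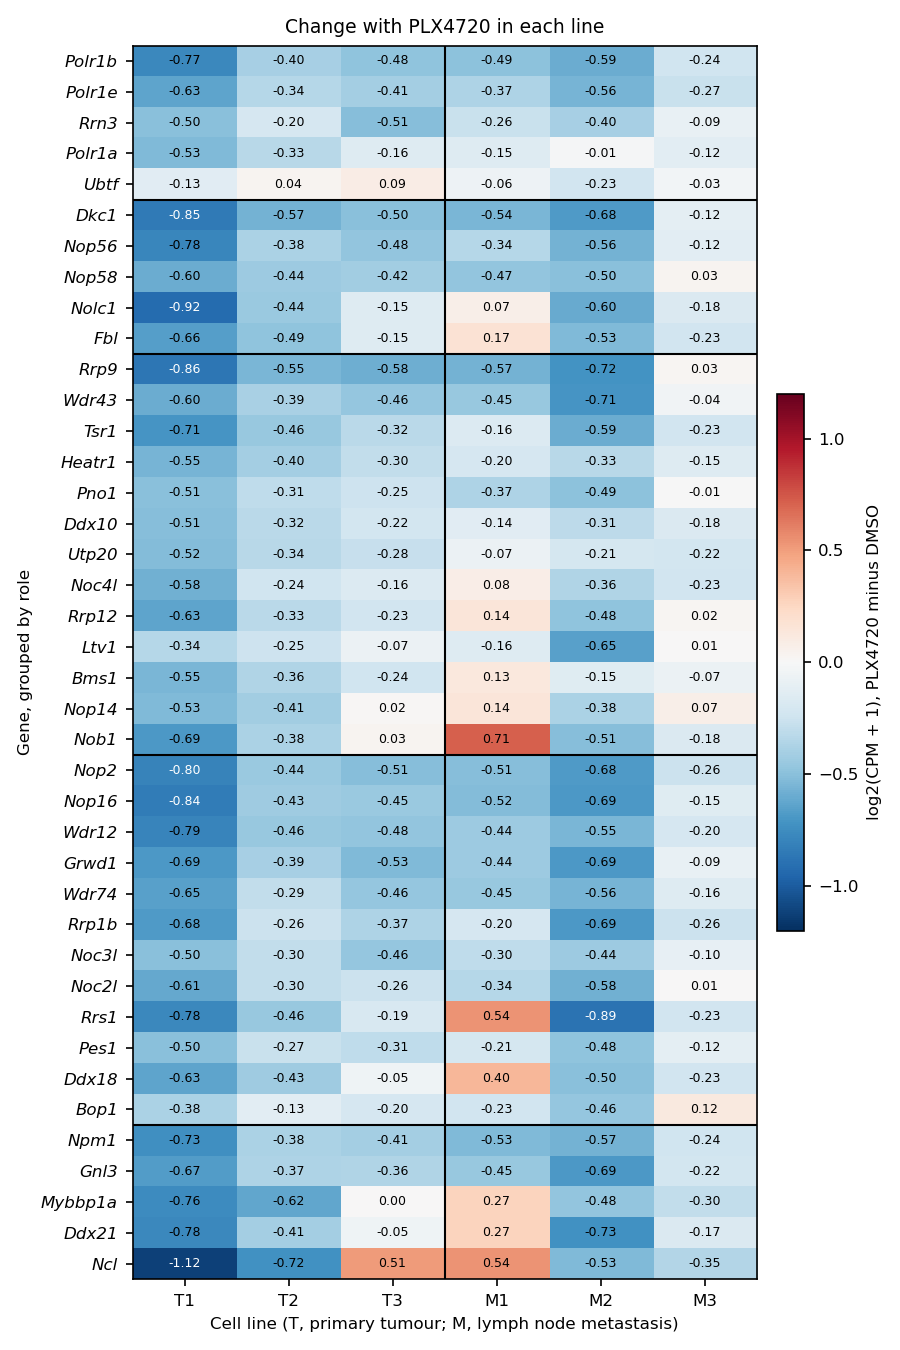
Difference of log2(CPM + 1) between the PLX4720 and the DMSO library of each line (columns) for each of the 40 genes (rows, grouped by role), with blue for lower and red for higher. T1 and M2 are blue in all 40 rows, M1 is red in 12 rows led by Nob1, Ncl and Rrs1, and M3 is pale with 33 rows below 0.

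The 12 genes that were higher in M1 were Nop14, Fbl, Ncl, Nolc1, Rrp12, Rrs1, Ddx21, Ddx18, Mybbp1a, Nob1, Noc4l and Bms1. Of the 5 above 0 in T3 (Nop14, Ncl, Ubtf, Mybbp1a and Nob1), 4 were among those 12. The 7 above 0 in M3 were mostly others (Nop14, Nop58, Rrp9, Rrp12, Bop1, Ltv1 and Noc2l), and none of these exceeded 0.12. Other values of the same lines are given beside this, and their part in it was not tested. T3 with PLX4720 was the library with 3.67% mitochondrial fragments. Etv4 and Dusp6, read-outs of ERK signalling, were lower in M1 (log2 differences of -1.37 and -1.23) and in T3 (-1.73 and -0.63), as in the other 4 lines. Myc, the transcription factor known to drive many of these genes, went from 100.1 to 70.1 CPM in T1, from 85.9 to 58.3 CPM in T2 and from 79.3 to 62.9 CPM in M2. It was higher with PLX4720 in T3 (113 and 145 CPM), in M1 (31.0 and 58.7 CPM) and in M3 (186 and 224 CPM). Myc thus moved in no common direction (0.02 ± 0.17, edgeR adjusted p = 0.96), and it was higher in T3 and M1, where Ncl was higher, and in M3, where Ncl was lower.

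Within primary lines alone, 21 of the 40 genes fell and none rose, against 3.77% of all genes that fell and 4.46% that rose, with a median fitted change of -0.44. Every treated level lay below every control level in primary lines for 16 of the 40, against 4.80% of all genes tested. Rrp9 (-0.68 ± 0.14, edgeR adjusted p = 0.026), Dkc1 (-0.65 ± 0.12, adjusted p = 0.0189) and Nop2 (-0.59 ± 0.11, adjusted p = 0.0181) had the largest changes there. Leaving out T1, T2 or T3 left 0 of the 40 past the threshold each time, with median changes of -0.31, -0.45 and -0.49. In these fits few genes of any kind were called in either direction, 0.531%, 1.22% and 2.00% of all genes tested, against 8.23% with the 3 lines.

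Within metastasis lines, 11 of the 40 fell and none rose, against 8.36% of all genes that fell and 12.0% that rose, and the median change was -0.27. The 11 were Polr1b, Polr1e, Dkc1, Wdr43, Wdr12, Nop2, Nop16, Wdr74, Grwd1, Npm1 and Gnl3, each of which also fell in primary lines. The largest changes were those of Nop2 (-0.48 ± 0.11, edgeR adjusted p = 0.0142), Nop16 (-0.46 ± 0.12, adjusted p = 0.0325) and Gnl3 (-0.46 ± 0.11, adjusted p = 0.0188). In no gene did all 3 treated levels lie below all 3 control levels, against 5.58% of all genes tested. Without M2 none of the 40 passed, without M1 2 passed and without M3 19 passed, while 11.0%, 15.5% and 17% of all genes were called in either direction, against 20.4% with the 3 lines. Fitting the 6 metastasis libraries alone gave 3 of the 40 and 15.1% of all genes. These shares of all genes count both directions, so they are not like the counts of the 40, which are falls only. Of the calls among all genes, 33.7% were lower without M2, 44.5% without M1, 44.7% without M3 and 35.8% with the site fitted alone.

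The response did not differ detectably between sites. None of the 40 genes passed the test of the difference (metastasis minus primary change), against 2.94% of all genes, 1 had an unadjusted p under 0.05 in edgeR, and DESeq2 also called 0. The fitted differences were positive for 38 of 40 genes, meaning a smaller fall in metastasis lines, with a median of 0.16 and SEs of 0.12 to 0.42. That median was 0.02 without T1 and 0.02 without M3, so its size rests on these lines. Bms1 had the smallest p, at 0.36 ± 0.13 (edgeR adjusted p = 0.235), with a change of -0.39 in primary and -0.03 in metastasis lines. These 38 signs are not independent, since all genes share the same 12 libraries.

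At baseline no site difference was detectable in these genes. Under DMSO, 0 of the 40 differed between metastasis and primary lines (edgeR), against 12.1% of the 14992 genes tested. None had an unadjusted p under 0.05 and DESeq2 called 0. The median difference was 0.04, and the fitted values ran from -0.39 to 0.70 with SEs of 0.17 to 0.56. The median was 0.20 without M1 and -0.18 without M3, so its sign turned with 1 line. Rrp9 was at the upper end, with 73.8 ± 22.2 CPM (mean ± SD, n = 3) in primary and 119.5 ± 30.4 CPM in metastasis lines, a difference of 0.70 ± 0.30 (edgeR adjusted p = 0.194). Noc4l was at the lower end, with 67.8 ± 6.39 and 51.3 ± 15.8 CPM (-0.39 ± 0.25, edgeR adjusted p = 0.39). A gene that did not pass here is not shown to be equal between the sites.

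**Figure D4:**
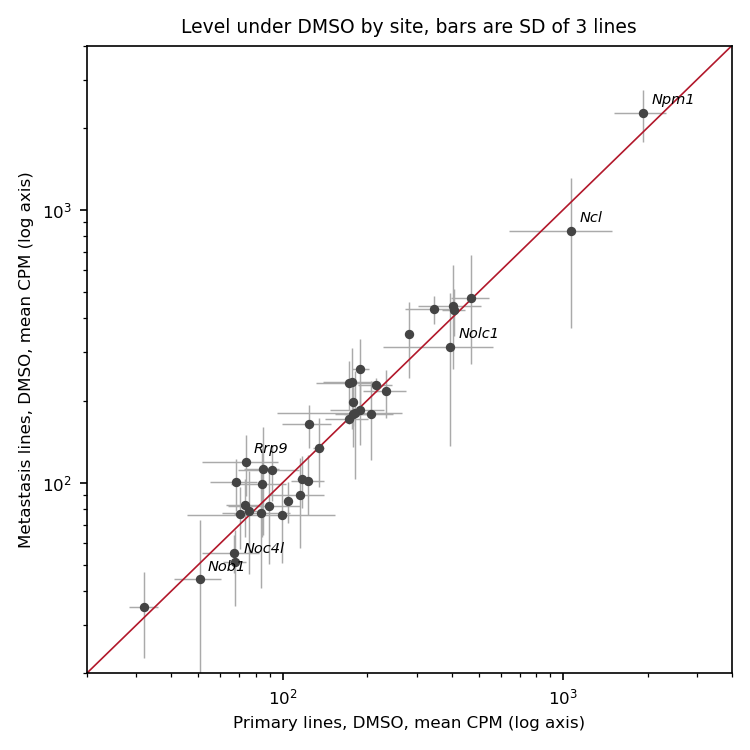
Mean CPM under DMSO of each of the 40 genes in primary lines (horizontal, log axis) and in metastasis lines (vertical, log axis), with bars for the SD of 3 lines and the red line for equal levels. Points lie along the line, Rrp9 is among those above it, and Ncl and Nob1 have wide bars.

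Levels of different genes were compared per length, as CPM per kilobase of gene length (FPKM) under DMSO. The order was led by Npm1 (786 ± 167 FPKM, mean ± SD over 6 lines), followed by Nop56 (102 ± 14.4), Nolc1 (97.7 ± 44.3), Gnl3 (95.6 ± 38.5), Ncl (93.6 ± 41.3) and Wdr43 (91.7 ± 22.8). From Nop56 to Wdr43 the neighbours in this order did not differ by more than their SDs, while Npm1 stood clear of them in every line. At the other end were Wdr12 (8.49 ± 2.01 FPKM) and Polr1e (8.60 ± 2.09 FPKM), again within their SDs of each other. The length used is that of all annotated exons of a gene together, 11955 bases for Wdr12 and 3897 for Polr1e. The order depends on it: before division by length, Wdr12 stood at 66.1 to 139 CPM under DMSO and Polr1e at 26.8 to 48.8 CPM. The median of the 40 was 37.8 FPKM against 4.12 FPKM for all genes tested. Ncl had a wide spread, from 31.9 to 153 FPKM, as did Nob1, from 3.60 to 19.7 FPKM, both with M1 at the low end.

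Sequence around the starts of these genes was read from RefSeq promoters (GRCm38.p6, 250 bases before to 50 bases after the start), which matched 35 of the 40, with 44 starts, and a gene counts where any of its starts holds the letters. MYC with its partner MAX binds the E-box CACGTG, which reads alike on both strands. It stood in 10 of 35 genes (28.6%), against 8.91% of 17491 protein-coding genes. The ETS letters CCGGAAG, on either strand, stood in 13 (37.1%) against 12.9%. The NRF1 motif stood in 1 (2.86%) against 1.47%, and TATAAA in 2 (5.71%) against 14.8%. The 17491 genes were not limited to those expressed in these lines, while all of the 40 were expressed, so these shares compare unlike sets. A match is a description of letters and shows no binding. Of the 10 genes with an E-box, 8 fell over all 6 lines, with a median change of -0.33, and of the 25 without one, 18 fell, with a median of -0.35.

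In Nop2 and Rrn3 the E-boxes lie before the start. Their 250 bases before the start are shown 5′ to 3′ on the gene's strand, with the E-box in capitals, because Nop2 has the smallest p of the 40 and Rrn3 is the growth-regulated initiation factor. The E-box of Nop2 lies at -60 to -55, and those of Rrn3 at -215 to -210 and -48 to -43, counted from the start.
Nop2 (chr6:125131633-125131882): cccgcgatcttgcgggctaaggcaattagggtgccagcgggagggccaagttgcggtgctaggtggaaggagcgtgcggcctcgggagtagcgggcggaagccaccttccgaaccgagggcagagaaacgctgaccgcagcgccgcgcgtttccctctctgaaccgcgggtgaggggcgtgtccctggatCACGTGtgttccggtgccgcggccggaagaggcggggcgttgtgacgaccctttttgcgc
Rrn3 (chr16:13780449-13780698): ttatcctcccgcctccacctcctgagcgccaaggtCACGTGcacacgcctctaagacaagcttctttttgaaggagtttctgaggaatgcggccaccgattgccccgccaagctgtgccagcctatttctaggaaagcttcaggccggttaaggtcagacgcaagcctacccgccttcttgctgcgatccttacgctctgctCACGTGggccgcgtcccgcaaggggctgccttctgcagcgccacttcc

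In the other 8 genes the E-box lies within 50 bases after the start. Only the site with its flanks is shown, again with the E-box in capitals, to let the flanks be compared. The first base of the E-box lies at 3 in Pes1, 18 in Wdr43, 25 in Tsr1, 29 in Ltv1, 35 in Grwd1, 38 in Pno1 and Utp20 and 41 in Mybbp1a, counted from 1 at the start.
Pes1 (chr11:3963967-3963992): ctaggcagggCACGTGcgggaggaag
Wdr43 (chr17:71616222-71616247): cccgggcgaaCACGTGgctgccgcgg
Tsr1 (chr11:74898094-74898119): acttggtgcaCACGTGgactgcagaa
Ltv1 (chr10:13193094-13193119): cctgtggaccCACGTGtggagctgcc
Grwd1 (chr7:45830740-45830765): gccggagtcgCACGTGtgaaaccgga
Pno1 (chr11:17211540-17211562): tacaaccacgCACGTGttcctct
Utp20 (chr10:88826765-88826787): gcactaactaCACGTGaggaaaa
Mybbp1a (chr11:72441357-72441376): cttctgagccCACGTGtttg
Of these 8, Ltv1 and Mybbp1a are those that did not pass the test over all lines.

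Some of these genes carry guide RNAs of the pathway in their introns, a known arrangement in which 1 transcript yields a protein and snoRNAs. In the GENCODE M21 annotation, 7 of the 40 (17.5%) have a snoRNA gene within their span on the same strand, against 225 of 13474 protein-coding genes tested (1.67%). Nop56 has 5, Nop58 has 4, Ncl, Wdr43 and Gnl3 have 3 each, Tsr1 has 2 and Dkc1 has 1, 21 in all. Of the 7 hosts, 6 fell with PLX4720 and Ncl did not pass, beside 28 of all 40 genes and 12.7% of all genes tested that fell. The counts are for exons of the hosts, and the snoRNAs were not analysed. Of the exon bases of Nop56, Ncl and Nop58, 8.00%, 2.12% and 0.78% overlap other genes on the same strand, snoRNAs among them. Which of the 21 lie wholly in introns was not checked.

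Other genes of the pathway, listed from textbook knowledge but with earlier results of these data known, moved with the 40. Over all 6 lines, 69 of 105 further assembly genes fell and none rose, with a median of -0.29 (12.7% of all genes tested fell). They comprise 4 of 11 other polymerase I subunits and factors, 9 of 13 other snoRNP genes, 25 of 36 small subunit and 31 of 45 large subunit assembly genes. In the snoRNP list Nhp2, the H/ACA partner of Dkc1, changed by -0.55 and the ATPase Ruvbl2 by -0.52. Rpf2 (-0.57) and Mak16 (-0.53) were among the large subunit genes and Utp4 (-0.56) among the small subunit genes. Of the RNA exosome, which trims precursor ends, 8 of 13 fell, with Exosc2 at -0.47.

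Cytosolic ribosomal proteins, the products that these factors assemble, fell in 69 of 79 cases over all 6 lines, 28 of 32 of the small and 41 of 47 of the large subunit. Rps27a changed by -0.35 and Rpl27 by -0.40. None rose. In primary lines 40 of the 79 fell, against 3.77% of all genes. In metastasis lines 2 fell (2.53%), fewer than the 8.36% of all genes, though 78 of the 79 fitted changes were below 0. Their median there was -0.22, against 0.02 for all genes tested. An unadjusted p under 0.05 (edgeR) was reached by 43 of the 79, against 5671 of all 16555 genes. The test of the difference between sites called none of the 79 (edgeR; 2 at an unadjusted p under 0.05). Ribosomal protein genes have many processed copies, so their counts are uncertain. Per line, their median log2 difference ran from -0.48 in T1 to -0.10 in M3, and that of the other assembly genes from -0.48 in T1 to -0.14 in M3.

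**Figure D5:**
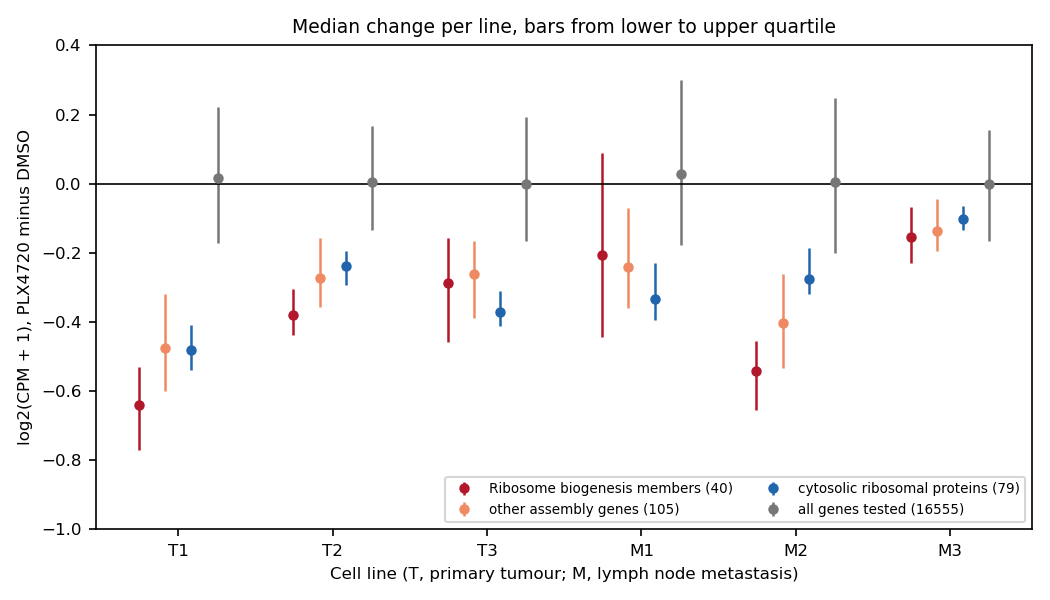
Median difference of log2(CPM + 1), PLX4720 minus DMSO, in each line for the 40 genes, 105 other assembly genes, 79 cytosolic ribosomal proteins and all 16555 genes tested, with bars from the lower to the upper quartile. The 3 lists lie below 0 in every line, nearest to it in M3, and the 40 genes have their widest bar in M1.

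Of 11 genes of the MYC network, 2 rose over all 6 lines and 2 fell, 36.4% called in either direction against 27.2% of all genes tested, so the count says nothing particular of this list. Mxd4, which competes with MYC for MAX, rose by 1.08 ± 0.15 (edgeR adjusted p = 0.0014). It went from 14.9, 27.3 and 21.9 CPM to 34.4, 50.6 and 28.6 CPM in T1, T2 and T3 and from 14.3, 14.2 and 25.4 CPM to 38.7, 49.0 and 43.0 CPM in M1, M2 and M3, so it was higher in 6 of 6 lines. Mycl rose as well (0.64), while Mlx (-0.37) and Mxi1 (-0.27) fell.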

How the data were processed

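Sequencing of ribosome-depleted, stranded total RNA gave 12 libraries, per the labels' protocols. The authors deposited raw counts of fragments per gene. They were made with featureCounts 1.5.2 on Ensembl 84 exons of GRCm38 without a strand option, per the file headers. No source used here names the aligner.

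Symbols came from GENCODE M21, which matched 47224 of 47729 identifiers. All 40 genes were found and passed the low-count filter. The genes and lists were chosen with earlier results of these data known.

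Counts were fitted with edgeR 4.0.16 (R 4.3.3), with filterByExpr, TMM scaling, the quasi-likelihood test and Benjamini-Hochberg adjustment over 16555 genes at a threshold of 0.05. The treatment fit took all 12 libraries, with cell line as blocking factor and 1 treatment effect for each site, leaving 4 residual degrees of freedom. Both effects were averaged for the value over 6 lines. Pairing comes from the line named in the labels, and deviations from group means of both libraries of a line correlated at 0.839 to 0.923. The baseline fit took the 6 DMSO libraries. SEs are the absolute log2 change divided by the root of F. Each line's change is its difference in log2(CPM + 1), from TMM-scaled CPM. In the treatment fit, p-values set the mean change against the spread of the change between lines, pooled over both sites. In the baseline fit they rest on the spread of levels between lines of a site. The scripts were tested on simulated counts with known changes. True log2 changes of 0.3 were called in 20% of genes over all lines, 0% in primary and 2% in metastasis lines. Changes of 0.5 were called in 72%, 26% and 28%, and changes of 1 in 94%, 94% and 90%. False genes made up 10.6%, 9.24% and 10.6% of the calls. A simulated site difference of 1 under DMSO was called in 4% of genes. For the treatment fit, only 50 genes at each size were changed among 16341, while 27.2% of genes were called over all lines in the data. The adjustment was therefore stricter in the simulation, and its rates of calling do not carry over to the data.

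Alternatives were DESeq2 1.42.0, other scalings, no filter, no mitochondrial genes, each line left out, no block, and each site alone. Values in every library are given for up to 12 called genes per comparison by smallest p and for the genes highest and lowest per length. Other members and context genes printed were picked from the lists after their values were seen. Protein composition was planned and not run.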

Additional observations from a re-analysis of the deposited data

Results flagged for a closer look

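In 2 of the 40 genes the log2 difference of M3 stood apart from the other 5 lines, by Dixon's ratio of the gap to the whole range. Nop58 was at 0.03 in M3 and between -0.6 and -0.42 in the others, and Rrp9 was at 0.03 in M3 and between -0.86 and -0.55 in the others. Chance marks about 1 in 20 such groups.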

How the results depend on the processing

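No member's call reversed under any alternative. Without the replicate block for the line, the count was 0 of 40 over all lines, 0 for primary and 0 for metastasis lines (18, 1 and 15 among all genes). Over all lines the count was 19 to 34 with 1 line left out (19 without T1, 34 without M1), and 26 to 31 under the other tools, scalings and filters. Of all genes, 14.1% (without T1) to 25.3% (without M3) and 14.6% (no filter) to 29.5% (DESeq2) were called there in either direction. In primary lines it ran from 0 (without T1, T2 or T3) to 26 (without M1) with a line left out, and 19 to 30 otherwise. The shares of all genes were 0.531% (without T1) to 13.2% (without M1), and 6.56% (no filter) to 16.4% (site fitted alone). In metastasis lines the count ran from 0 (without M2) to 19 (without M3), was 17 with library totals and 3 with that site fitted alone. The shares of all genes there were 11.0% (without M2) to 18.1% (without T3), 20.7% and 15.1%. T3 and M1 were also left out together, lines chosen because some of the 40 were higher there. The count was then 37 over all lines, 18 in primary and 0 in metastasis lines (19.9%, 6.92% and 15.9% of all genes called). That choice used the outcome, so these counts support nothing. For all genes, library totals moved the lower share of primary calls from 45.8% to 35.4%. The difference between sites and the baseline comparison gave 0 of the 40 in every alternative, including a replicate block by line number for the baseline. Numbers do not pair lines across sites (correlations of -0.0982 to 0.0120). The cause of these shifts was not tested.

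Fits with 1 line fewer hold fewer samples, and a site left with 2 lines rests on the spread pooled over all lines. The lowest count of any of the 40 genes in a library was 420 fragments. Protein composition was not run, since no protein table was used here.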
